A study of Mus musculus with 45 samples.

Results

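The collagens and laminins are the large structural proteins of the extracellular matrix, and the genes described here are all protein-coding mouse genes whose symbol is Col, Lama, Lamb or Lamc followed by a digit and whose mean level over the 45 libraries was at least 0.5 CPM (the counts of a gene scaled to a common total per library). This rule took 51 of the 56 such symbols in the annotation, out of 14922 genes that reached the same minimum and 37048 with any read. Of the 51, 50 encode collagen (39) or laminin (11) chains. The other, Col4a3bp, encodes the ceramide transfer protein, which shares only its symbol with the family, so it is described apart at the end. The minimum left out Col9a2 (0.33 CPM), Col17a1 (0.30 CPM), Col8a2 (0.28 CPM), Col24a1 (0.07 CPM) and Col4a3 (0.05 CPM). The lowest chains that it kept were Col6a6 (0.725 CPM), Col6a4 (0.729 CPM) and Col14a1 (0.793 CPM).

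RNA was sequenced from primary hippocampal neurons of newborn C57BL/6N mice, grown in medium with B27 and rat serum, given AraC against dividing cells, and treated on DIV 10 or 11 by the labels, and on DIV 11 by the methods given for RNA sequencing. The 9 conditions were each sampled in 5 culture preparations (numbered 1, 3, 6, 7 and 8), which gave 45 libraries. An untreated control stood beside cultures kept for 0.5, 1 or 2 h in bicuculline (Bic, 50 µM), which blocks GABA type A receptors and so sets off AP firing. In the short protocol (SP), TTX (1 µM), a sodium channel blocker that stops AP firing, or TTX with NMDA (30 µM) was added after 0.5 h of Bic and left for 0.5 h. In the long protocol (LP), the addition came after 1 h and stayed for 1 h, and was TTX, TTX/NMDA, or TBOA (50 µM), an inhibitor of glutamate uptake under which synaptic glutamate spills over. Bic remained in the dish in all of these. The passive effect compares TTX with Bic that ran as long without a block, the active effect TTX/NMDA with TTX, the total effect TTX/NMDA with Bic, and glutamate spillover TBOA with 2 h Bic. Bath-applied NMDA serves as the model of excitotoxic signaling, with the limits that it acts on a whole dish of neurons and remaining glia and that the plates were coated with laminin, a protein coat which adds no mRNA.

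Collagen chains assemble in threes into a triple helix. Fibrillar collagens such as types I, III and V form the tensile fibrils of connective tissue, type IV forms the sheet of the basement membrane, FACIT collagens sit on fibrils, multiplexins link basement membranes to the tissue beneath, and the transmembrane types stay attached to the cell that makes them. Laminins are trimers of an alpha, a beta and a gamma chain that start the assembly of a basement membrane and are read by integrins and dystroglycan. In brain, basement membranes and fibrils are found mainly around vessels and in the meninges, whereas some collagens, among them types XIX and XXV, are made by neurons.

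Position and sequence are shown for the genes on which the results below turn. Col10a1 (ENSMUSG00000039462, chr10:34389981-34397085, plus strand) and Col15a1 (ENSMUSG00000028339, chr4:47208161-47313167, plus strand) had the largest changes under AP firing, and Col3a1 (ENSMUSG00000026043, chr1:45311538-45349706, plus strand) was the most abundant fibrillar chain per length. The 250 bases before the RefSeq start of each (GRCm38.p6, plus strand, 5′ to 3′) follow, with any TATAAA in capitals.
Col10a1, chr10:34389731-34389980: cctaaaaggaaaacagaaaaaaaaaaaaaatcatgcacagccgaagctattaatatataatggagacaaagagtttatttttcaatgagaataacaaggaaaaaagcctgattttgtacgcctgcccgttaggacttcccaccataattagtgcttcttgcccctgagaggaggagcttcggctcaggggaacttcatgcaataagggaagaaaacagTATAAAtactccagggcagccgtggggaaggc
Col15a1, chr4:47207762-47208011: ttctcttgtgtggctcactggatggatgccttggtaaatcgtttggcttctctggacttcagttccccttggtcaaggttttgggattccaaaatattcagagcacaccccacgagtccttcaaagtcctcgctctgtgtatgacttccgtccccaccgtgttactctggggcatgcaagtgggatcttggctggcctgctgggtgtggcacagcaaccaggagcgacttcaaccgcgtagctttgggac
Col3a1, chr1:45311288-45311537: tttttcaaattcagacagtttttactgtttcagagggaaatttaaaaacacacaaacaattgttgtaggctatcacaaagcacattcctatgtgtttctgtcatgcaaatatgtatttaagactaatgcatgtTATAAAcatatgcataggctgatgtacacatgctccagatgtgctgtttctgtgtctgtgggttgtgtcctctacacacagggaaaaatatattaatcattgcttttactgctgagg
TATAAA begins 32 bases before the start of Col10a1 and 117 bases before that of Col3a1, and it is absent from the Col15a1 window, where the start of the annotation used for the counts lies further downstream. Col4a1 (ENSMUSG00000031502, chr8:11198423-11312826, minus strand) and Col4a2 (ENSMUSG00000031503, chr8:11312805-11449287, plus strand) lie head to head, and their annotated 5′ ends overlap by 22 bases.
Col4a2 and Col4a1, shared, chr8:11312805-11312826: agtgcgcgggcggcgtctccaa

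RefSeq held an upstream window for 36 of the 51 genes, and 6 motifs were searched on both strands of these 250 bases. The GC box GGGCGG stood in 21 of the 36 windows (58.3%), against 32.7% of all 32851 windows of this length. CCAAT stood in 13 (36.1%, against 33.8% of all). TATAAA stood in 4 (Col10a1, Col11a2, Col13a1 and Col3a1, against 12.4% of all), the CArG box in Col6a4 and Lama2 (against 1.47% of all), and the AP-1 site TGANTCA in Col6a1 alone (against 6.75% of all). The cAMP response element TGACGTCA was in none of the 36, and in 1.55% of all windows. These are matches of letters in a window and not sites of binding.

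The deposited counts summed to between 11316580 and 81129276 reads per library (median 26239614). Neuronal markers were high in all libraries, while the cultures also held markers of other cells: summed over each list, the control libraries had a median of 8675 CPM for 9 neuronal markers, 1132 CPM for 9 astrocyte markers, 67.0 CPM for 10 fibroblast and meningeal markers, 34.1 CPM for 9 mural markers and 6.88 CPM for 9 endothelial markers. The endothelial marker Cldn5 had no read in 27 of the 45 libraries and Tie1 none in 16. The AP firing response was present: of Npas4, Fos, Arc and Bdnf, 3 rose after 0.5 h Bic and all 4 after 1 and 2 h. In bulk RNA, fewer cells of a type and less RNA per cell cannot be told apart, and this holds for every level below.

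Per kilobase of exon, the type IV pair that forms most basement membranes led the family. Col4a2 had a mean of 20.6 CPM per kb over all libraries and Col4a1 16.1, followed by the fibrillar chain Col3a1 (11.4), Col18a1 (8.80), a multiplexin and the precursor of endostatin, and Lamb1 (7.25), the common laminin beta chain. Then came Col26a1 (7.04), Lamc1 (5.79), the gamma chain of most laminins, Col25a1 (5.06), a transmembrane collagen of neurons, Col1a1 (4.26), Col6a1 (4.23) and Col19a1 (4.11). In the control libraries the levels were 15.5 ± 3.18 CPM per kb for Col4a2, 13.4 ± 2.77 for Col4a1, 9.27 ± 4.34 for Col3a1, 6.70 ± 2.79 for Col18a1 and 6.17 ± 1.24 for Lamb1 (SD, n = 5 preparations). Neighbours in this order overlapped: Col4a2 ran from 10.1 to 18.3 CPM per kb in the controls and Col4a1 from 8.65 to 15.6, while Col3a1 ran from 4.30 to 15.3.

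The chains differed more between culture preparations than most genes did. Of the variance of log2(CPM + 0.5) over the 45 libraries, a median of 46.7% lay between preparations and 30.7% between conditions for the 50 chains. For all 14922 genes at the same minimum level the medians were 19.4% and 42.1%. The share between preparations exceeded that between conditions for 32 of the 50 chains and for 4199 of the 14922 genes. Without preparation 8, the median share between preparations was 29.1%. A gene's highest preparation mean was a median of 1.64 times its lowest for the chains, against 1.18 times for all genes.

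The spread had a direction that most chains shared. Preparation 8 had the lowest mean for 33 of the 50 chains and preparation 3 the highest for 27. The range was widest for the type I chain Col1a2 (3.79 times), Col3a1 (3.29 times), Col1a1 (3.21 times) and Col18a1 (3.11 times), and smallest for the FACIT collagen Col22a1 (1.11 times) and Col19a1 (1.20 times). Preparation 8 was also lowest in summed endothelial (1.83 times range), oligodendrocyte lineage (1.6 times), fibroblast and meningeal (1.53 times), mural (1.51 times), astrocyte (1.39 times) and microglial (1.28 times) markers. Neuronal markers had a range of 1.10 times and were lowest in preparation 3. The part of these cells in the spread was not tested.

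**Figure D1:**
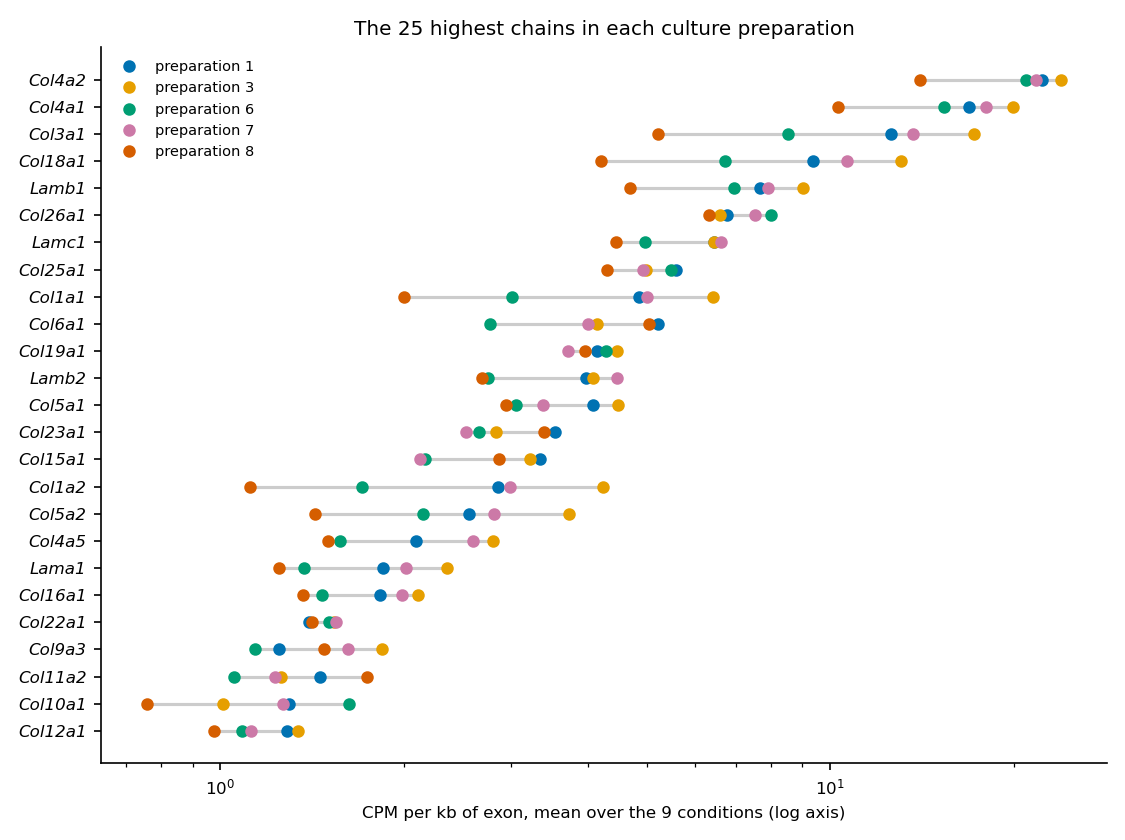
Mean level per kilobase (CPM per kb, log axis) of the 25 chains highest per length, with 1 point for each of the 5 culture preparations (mean of its 9 libraries). Preparation 8 lies lowest for most chains, and the points of Col1a1, Col1a2, Col3a1 and Col18a1 spread over more than those of Col19a1 and Col22a1.

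AP firing raised a few chains early. After 0.5 h Bic, 2 of the 50 chains were called higher than in the control and 0 lower (edgeR's quasi-likelihood test, Benjamini-Hochberg adjusted p under 0.05), where 0.563% of the 14922 genes at this minimum level were called higher. They were Col4a2 (log2 fold change 0.56 ± 0.11 SE, adjusted p = 0.0021) and the minor fibrillar chain Col11a1 (0.50 ± 0.12, adjusted p = 0.029). With genes filtered by filterByExpr, 0 chains were called (0.422% of genes), with adjusted p = 0.33 for Col4a2 and 0.19 for Col11a1. With the culture preparation as a block, 4 were (0.544% of genes), the added chains being Col4a1 and Col5a1 (both adjusted p = 0.029 in the block fit). The median log2 fold change of the 50 chains was 0.19, against −0.01 for all 14922 genes.

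After 1 h Bic, 3 chains were called higher and 0 lower (1.86% of genes were called higher). Col4a2 rose by 0.54 ± 0.11 (adjusted p = 0.0039), Col5a1, which nucleates fibrils, by 0.52 ± 0.12 (adjusted p = 0.011), and Col19a1, which hippocampal interneurons are known to make, by 0.51 ± 0.11 (adjusted p = 0.0053) on the log2 scale. With filterByExpr 0 were called (1.7% of genes), and with the preparation as a block 6 were (2.97% of genes), among them Col1a1, Lama4 and Lama5 (adjusted p = 0.046, 0.025 and 0.028 in the block fit).

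After 2 h Bic the change was wider. Higher levels were called for 9 chains and a lower level for 1, where 7.82% of genes were called higher and 9.65% lower. The median log2 fold change of the chains was 0.31, against 0.00 for all genes, and 45 of the 50 chains had a positive value. With the preparation as a block, 28 chains were called higher and 1 lower, against 14.6% of genes higher and 15.3% lower. The 9 higher chains came from 5 collagen classes and from the laminin alpha and gamma chains, and none was a type VI collagen, a transmembrane collagen or a laminin beta chain. The block fit called chains of these classes too: 3 of 6 type VI, 3 of 3 transmembrane and 3 of 3 laminin beta chains were higher in it.

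Col10a1, a short-chain network collagen best known from the cartilage growth plate, had the largest rise. Its control libraries had 2.61, 1.04, 2.44, 0.960 and 0.156 CPM in preparations 1, 3, 6, 7 and 8, the last resting on 3 reads. After 2 h Bic they had 8.90, 7.30, 9.56, 6.74 and 6.44 CPM. Every 2 h library lay above every control library, with a log2 fold change of 2.49 ± 0.26 (adjusted p = 4.4e-09). Levels stood between these after 1 h Bic, at 3.31, 1.08, 3.13, 1.96 and 3.08 CPM, and overlapped with the controls.

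Col15a1, a multiplexin of basement membranes, was the chain that fell. It had 26.98, 20.7, 19.2, 17.4 and 20.2 CPM in the controls and 12.9, 9.61, 9.15, 8.00 and 16.1 CPM after 2 h Bic, so that every treated library lay below every control library. The log2 fold change was −0.91 ± 0.14 (adjusted p = 5.4e-06). Before that, it had 37.3, 31.4, 16.8, 20.8 and 24.6 CPM after 0.5 h Bic and 19.98, 26.5, 11.4, 16.4 and 13.9 CPM after 1 h, overlapping with the controls at both times.

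Among the other chains called after 2 h, the laminin gamma chain Lamc1 had 42.4, 35.7, 34.03, 42.8 and 32.9 CPM in the controls and 56.1, 61.4, 48.2, 57.0 and 44.5 CPM after Bic. The groups did not overlap (0.50 ± 0.09, adjusted p = 0.00016), nor did they for Col5a1 (0.50 ± 0.11, adjusted p = 0.0017) and for Col7a1, the anchoring fibril collagen (0.64 ± 0.16, adjusted p = 0.0079). Col19a1 rose by 0.53 ± 0.12 (adjusted p = 0.0015), the laminin alpha chain Lama5 by 0.52 ± 0.13 (adjusted p = 0.0057) and Col4a2 by 0.49 ± 0.13 (adjusted p = 0.008), each higher in 5 of 5 preparations with overlapping groups. Lama1 (0.42 ± 0.13, adjusted p = 0.033) and the FACIT collagen Col16a1 (0.40 ± 0.13, adjusted p = 0.046) passed more narrowly, and the calls of Lama1, Col16a1 and Col4a2 were lost with filterByExpr (adjusted p = 0.08, 0.077 and 0.054). The abundant fibrillar chains did not pass, with log2 fold changes of 0.10 ± 0.22 for Col3a1 and 0.53 ± 0.21 for Col1a1 (adjusted p = 0.83 and 0.13). In the block fit Col1a1 passed (adjusted p = 0.00029), as did Lamb1 (0.00048) and Lamb2 (0.00058).

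The partner chains Col4a1 and Col4a2, which are known to form 1 trimer, moved unequally. Col4a2 had 121.1, 103.1, 113.3, 108.5 and 66.9 CPM in the controls and 166.7, 163.7, 156.3, 160.5 and 100.9 CPM after 1 h Bic, lowest in preparation 8 at both. The ratio of Col4a2 to Col4a1 within a library had a log2 value of −0.06 to 0.12 in the 5 controls (mean 0.04), of 0.05 to 0.27 after 0.5 h Bic, of 0.26 to 0.59 after 1 h (mean 0.48) and of 0.13 to 0.54 after 2 h (mean 0.31). With TBOA in the LP it was 0.19 to 0.39, and with TTX in the SP 0.24 to 0.61. With TTX in the LP it was −0.04 to 0.21 (mean 0.03), and with TTX/NMDA −0.12 to 0.17 in the SP and −0.26 to 0.13 in the LP, ranges that overlap that of the controls. No test was run on this ratio, which was looked at with the levels known. For comparison, the log2 ratio of the type I partners Col1a1 and Col1a2 had means of −0.22 in the controls and −0.18 after 1 h Bic.

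**Figure D2:**
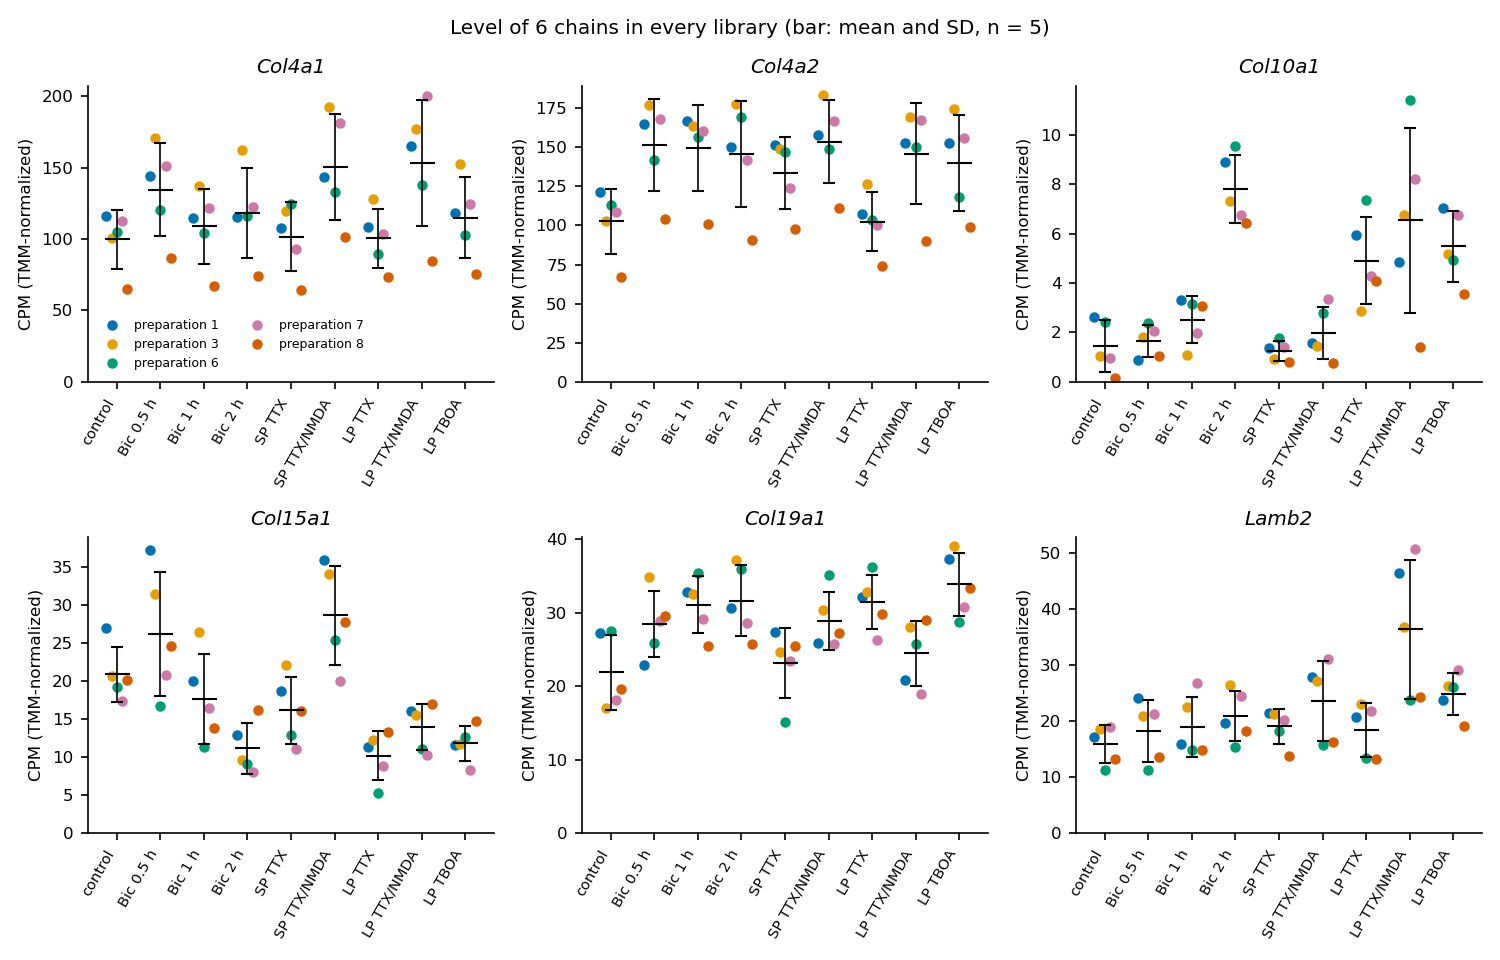
Level (CPM) of Col4a1, Col4a2, Col10a1, Col15a1, Col19a1 and Lamb2 in each of the 45 libraries, by condition, with the mean and SD over the 5 preparations. Col10a1 has means of at least 4.905 CPM in the conditions that lasted 2 h and of at most 2.51 CPM in the others, all 5 Col15a1 libraries after 2 h Bic lie below all 5 controls, and all 5 Lamb2 libraries with LP TTX/NMDA lie above all 5 with LP TTX.

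Blocking AP firing for 0.5 h changed no chain past the test. In the SP passive effect 0 of the 50 chains were called in either direction by edgeR, 5 had an unadjusted p under 0.05, DESeq2 and the block fit also called 0, and 0.529% of all genes were called. Leaving out any 1 preparation gave 1 to 2 chains called lower, with 1 without preparation 1 (0.315% of genes), 6 or 8 and 2 without preparation 3 (0.905% of genes) or 7. The values nearest to the threshold were those of Col10a1 (−0.97 ± 0.23, adjusted p = 0.053) and Col19a1 (−0.44 ± 0.11, adjusted p = 0.059). Col10a1 had 1.38, 0.8995, 1.75, 1.41 and 0.805 CPM with TTX, lower than after 1 h Bic in 5 of 5 preparations.

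After 1 h of TTX in the LP, 2 chains were called lower and 0 higher, where 3.34% of genes were called lower. Col10a1 had 5.92, 2.88, 7.35, 4.29 and 4.09 CPM with TTX, lower than with 2 h Bic in each preparation, with 1 library inside the range of the Bic libraries (log2 fold change −0.72 ± 0.17, adjusted p = 0.0067). Col4a2 had 107.2, 126.8, 103.2, 100.5 and 74.2 CPM with TTX against 90.4 CPM in preparation 8 and 141.7 to 177.4 CPM in the others with 2 h Bic, lower in each preparation although the groups overlapped (−0.52 ± 0.12, adjusted p = 0.0052). The median over the chains was −0.12, and 7 of 50 had a positive value. With the preparation as a block 15 chains were called lower, among them Col4a1 (−0.24 ± 0.12 and adjusted p = 0.37 without the block, adjusted p = 0.0014 with it), and 16.8% of genes were. With filterByExpr 1 chain, Col10a1, was called (4.7% of genes).

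NMDA on top of TTX raised chains in the short protocol already. In the SP active effect 7 chains were called higher and 0 lower, where 1.71% of genes were called higher. The median log2 fold change was 0.31, against 0.02 for all genes, and 46 of 50 chains had a positive value. With the preparation as a block 14 chains were called (6.16% of genes). The 7 chains covered 5 collagen classes and 1 laminin alpha chain.

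Col15a1, the chain that fell after 2 h Bic, had the largest change here. It had 18.7, 22.1, 12.9, 11.03 and 16.01 CPM with TTX and 35.95, 34.1, 25.5, 20.01 and 27.7 CPM with TTX/NMDA, higher in each preparation by a log2 fold change of 0.82 ± 0.14 (adjusted p = 0.0001), while the groups overlapped. Col28a1 (0.74 ± 0.18, adjusted p = 0.013) and Col26a1 (0.36 ± 0.07, adjusted p = 0.00088) had groups that did not overlap. Col28a1, a small beaded-filament collagen, ran from 1.17 to 1.68 CPM with TTX and from 1.74 to 2.93 CPM with TTX/NMDA, and Col26a1 from 46.3 to 52.3 and from 56.9 to 72.2 CPM.

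The other called chains were Col11a1 (0.62 ± 0.14, adjusted p = 0.0042), the transmembrane Col13a1 (0.60 ± 0.17, adjusted p = 0.033), Col4a1 (0.56 ± 0.13, adjusted p = 0.0064) and Lama5 (0.41 ± 0.12, adjusted p = 0.042), each higher in 5 of 5 preparations. Col4a1 had 107.4, 119.6, 124.5, 92.9 and 64.0 CPM with TTX and 143.7, 192.2, 133.0, 181.4 and 101.1 CPM with TTX/NMDA, so that only preparation 8 with NMDA fell inside the TTX range. Its partner Col4a2 did not pass (0.19 ± 0.10, adjusted p = 0.40, but 0.045 in the block fit), nor did Col3a1 (0.31 ± 0.22, adjusted p = 0.53), Col1a1 (0.36 ± 0.22, adjusted p = 0.51), Lamb1 (0.07 ± 0.12, adjusted p = 0.82) and Lamb2 (0.31 ± 0.14, adjusted p = 0.27). In preparation 6 the summed fibrillar chains fell from 255.9 CPM with TTX to 202.6 CPM with TTX/NMDA, while they rose in preparations 1, 3, 7 and 8. The TTX library of preparation 6 stood above its 1 h Bic library, at 168.6 CPM of fibrillar chains. Its astrocyte markers summed to 1694 CPM, against 1175 CPM after 1 h Bic. Col4a1 and Lama5 lost their calls with filterByExpr (adjusted p = 0.07 and 0.072). The count moved when preparations were left out: 21 chains were called higher without preparation 8 (3.51% of genes), 4 without preparation 7 (1.21%) and 12 without preparation 6 (1.64%). The prior degrees of freedom, which set how far edgeR draws each gene's variance to the common trend, were infinite without preparation 8, so that this fit placed every gene on that trend. They were 56.06 without preparation 7, 47.59 without preparation 6 and 25.37 with all 5.

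In the long protocol, NMDA raised most fibrillar and basement membrane chains. In the LP active effect 27 of 50 chains were called higher and 1 lower, where 19.9% of genes were called higher and 24.8% lower. The median log2 fold change of the chains was 0.51, against 0.00 for all 14922 genes, and 42 of the 50 had a positive value. With the preparation as a block 35 were called higher and 2 lower (33.8% and 30.8% of genes), and with filterByExpr 24 higher (24.9% of genes). DESeq2 called 18 higher (21.4% of genes), a set that no longer held Col1a1, Col1a2, Col3a1, Col5a2 and Col18a1 (adjusted p = 0.091, 0.16, 0.093, 0.078 and 0.098). Leaving out preparations in turn gave 24 to 32 higher chains.

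All 10 fibrillar chains rose, by 0.46 to 0.96 on the log2 scale. Col5a3, a minor fibrillar chain, had 4.25, 6.16, 3.27, 4.63 and 5.36 CPM with TTX and 9.64, 10.2, 7.73, 10.7 and 8.66 CPM with TTX/NMDA, with no overlap (0.96 ± 0.14, adjusted p = 3e-06). Col11a1 (0.81 ± 0.13, adjusted p = 2.6e-05), Col27a1 (0.83 ± 0.15, adjusted p = 0.00012) and Col2a1 (0.76 ± 0.21, adjusted p = 0.0072) did not overlap either. The main chains of connective tissue had fold changes as large with groups that overlapped, preparations 6 and 8 being the lowest with either treatment. Col3a1 had 112.0, 143.9, 62.7, 110.8 and 48.7 CPM with TTX and 230.8, 222.5, 112.4, 246.5 and 73.4 CPM with TTX/NMDA (0.88 ± 0.24, adjusted p = 0.0054). Col1a1 had 28.7, 36.1, 13.6, 25.1 and 11.9 CPM and then 56.9, 55.4, 26.5, 61.0 and 18.7 CPM (0.91 ± 0.24, adjusted p = 0.0053). Both were higher with NMDA in 5 of 5 preparations, as were Col1a2 (0.88 ± 0.27, adjusted p = 0.015), Col5a1 (0.52 ± 0.14, adjusted p = 0.0049) and Col5a2 (0.73 ± 0.19, adjusted p = 0.0049).

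Of the 5 basement membrane collagens, 4 rose. Col4a5 (0.91 ± 0.17, adjusted p = 0.00016) and Col4a6 (0.93 ± 0.20, adjusted p = 0.00084), which are head-to-head neighbours on the X chromosome and partners in 1 trimer, ran from 8.07 to 16.9 and from 2.06 to 4.65 CPM with TTX and from 15.4 to 32.7 and from 4.18 to 8.80 CPM with TTX/NMDA. Col4a1 had 108.3, 128.3, 89.3, 103.4 and 73.4 CPM with TTX and 164.9, 176.9, 137.8, 200.3 and 84.8 CPM with TTX/NMDA (0.60 ± 0.14, adjusted p = 0.002), and Col4a2 changed by 0.50 ± 0.12 (adjusted p = 0.0022). In both, preparation 8 with NMDA stayed inside the TTX range. Col4a4 did not pass (0.48 ± 0.21, adjusted p = 0.11), except in the block fit (adjusted p = 0.0032), where all 5 were called. Both multiplexins rose, Col18a1 by 0.84 ± 0.23 (adjusted p = 0.0061) and Col15a1 by 0.45 ± 0.16 (adjusted p = 0.042), the latter call being lost with filterByExpr (adjusted p = 0.069) and with DESeq2 (adjusted p = 0.083).

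The laminins split within each chain type, with 5 of 11 called higher and 0 lower, and 7 higher and 1 lower in the block fit. Lamb2, the beta chain of vascular and synaptic laminins, had the largest change of all 50 chains: 20.7, 23.2, 13.4, 21.8 and 13.2 CPM with TTX against 46.5, 36.8, 23.9, 50.8 and 24.3 CPM with TTX/NMDA. All 5 libraries with NMDA lay above all 5 without (0.97 ± 0.17, adjusted p = 4.3e-05). Lama4, an alpha chain of vessels (0.83 ± 0.21, adjusted p = 0.0035), Lama5 (0.77 ± 0.14, adjusted p = 9.6e-05), Lamc3 (0.72 ± 0.21, adjusted p = 0.011) and Lama1 (0.68 ± 0.15, adjusted p = 0.0009) also rose. Lamb1 and Lamc1, which are the most abundant laminin chains per length here, did not pass (0.33 ± 0.14 and 0.14 ± 0.13, adjusted p = 0.11 and 0.43), and Lama2 had 0.10 ± 0.15 (adjusted p = 0.66). In the block fit Lamb1 and Lamc1 were called higher (adjusted p = 2.1e-05 and 0.038) and Lamb3, a beta chain of epithelial laminins, lower (−0.34 ± 0.21 and adjusted p = 0.28 without the block, adjusted p = 0.034 with it).

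In the remaining classes smaller shares of the chains passed. Col6a2 (0.71 ± 0.20, adjusted p = 0.01) and Col6a3 (0.57 ± 0.19, adjusted p = 0.03) rose among the 6 chains of collagen VI, a beaded-filament collagen, while Col6a1 had 0.25 ± 0.18 (adjusted p = 0.36) and Col6a6 0.63 ± 0.26 (adjusted p = 0.084). Both of these passed in the block fit (adjusted p = 0.0095 and 0.014), which made 4 of 6. Col9a3 (0.84 ± 0.18, adjusted p = 0.00071) and Col16a1 (0.74 ± 0.15, adjusted p = 0.00044) rose among 8 FACIT collagens, Col8a1 (0.85 ± 0.22, adjusted p = 0.0042) among 2 short-chain collagens, and Col7a1 (0.88 ± 0.17, adjusted p = 0.00016). None of the 3 transmembrane collagens passed, with 0.34 ± 0.19 for Col13a1, 0.24 ± 0.12 for Col23a1 and −0.09 ± 0.09 for Col25a1 (adjusted p = 0.23, 0.17 and 0.50). In the block fit Col13a1 and Col23a1 did (adjusted p = 0.049 and 0.0073). Col10a1 scattered from 1.41 to 11.4 CPM with TTX/NMDA and did not pass (0.38 ± 0.29, adjusted p = 0.40). Exons of Col9a3 overlap those of Tcfl5 on the other strand by 234 bases, and since reads overlapping more than 1 gene were not counted and counting used the strand, only same-strand overlaps could remove reads.

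Col19a1 was the chain that fell with NMDA in the LP. It had 32.1, 32.8, 36.2, 26.2 and 29.8 CPM with TTX and 20.8, 28.1, 25.7, 18.9 and 28.96 CPM with TTX/NMDA, lower in each preparation with overlapping groups (−0.36 ± 0.10, adjusted p = 0.0071). In the SP it had 27.4, 24.7, 15.1, 23.4 and 25.4 CPM with TTX and 25.9, 30.4, 35.1, 25.7 and 27.3 CPM with TTX/NMDA, of which preparation 1 alone did not rise.

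**Figure D3:**
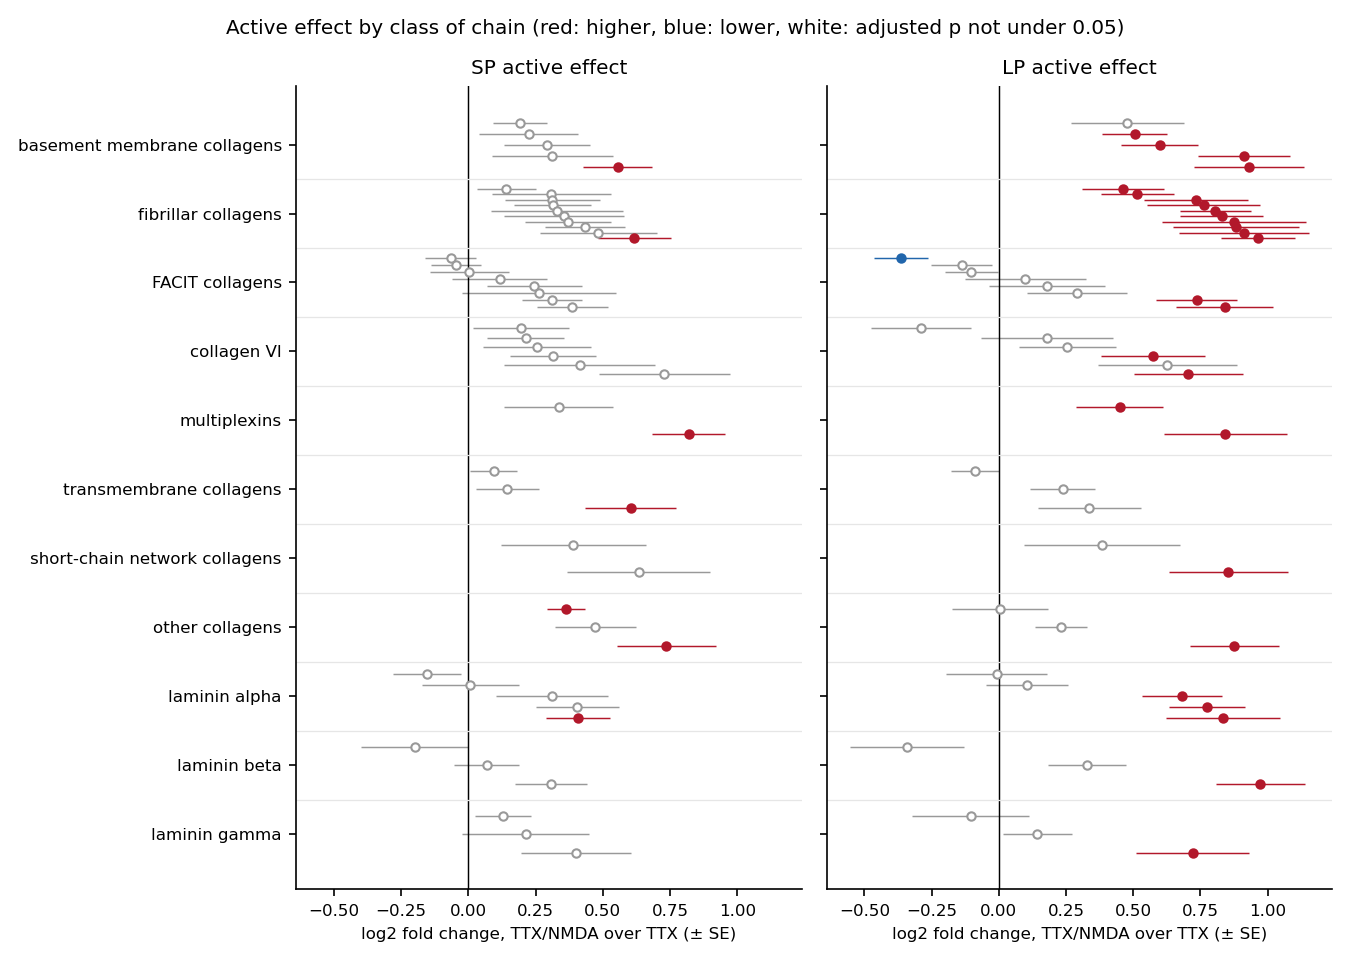
Log2 fold change (± SE) of TTX/NMDA against TTX for each of the 50 chains, by protein class, in the short and the long protocol, with a line at 0. In the long protocol all 10 fibrillar chains lie between 0.46 and 0.96, and Col19a1 is the called chain below 0.

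The effect of NMDA was then compared directly between the protocols, in a fit of all 20 libraries with TTX and TTX/NMDA, which share no library between LP and SP. The median difference of the log2 fold change, LP minus SP, was 0.25 over the chains and −0.01 over all genes, and it was positive for 34 of 50 chains. In this test 0 chains were called higher and 1 lower in the LP (1.43% and 4.26% of genes). Of the 50, 7 had an unadjusted p under 0.05, and DESeq2 called 2 higher and 2 lower (2.92% and 7.9% of genes). With the preparation as a block 19 were called higher and 2 lower, against 10.4% of genes higher and 16.7% lower. The chain called was Col19a1, which differed by −0.66 ± 0.17 (adjusted p = 0.025). Without preparation 6, where it rose most in the SP, the difference was not called. The difference for the fibrillar chains ranged from 0.11 to 0.67 with a median of 0.42, and none of the 10 passed without the block, while 6 did with it. The 20 libraries include SP TTX of preparation 6, with 255.9 CPM of summed fibrillar chains against 168.6 CPM in its 1 h Bic library.

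Fibrillar and basement membrane levels rose beside markers of non-neuronal cells in the LP. The summed level of the 10 fibrillar chains was 256.9, 320.8, 145.4, 240.9 and 136.8 CPM with TTX and 484.8, 488.4, 260.5, 516.3 and 198.6 CPM with TTX/NMDA. It was higher in each preparation, and preparation 8 gained least. The 9 mural markers summed to 30.2 to 39.1 CPM with TTX and 44.96 to 77.02 CPM with TTX/NMDA. Of these markers 6 of 9 were called higher, where 19.9% of all genes were called higher and 24.8% lower. For the 10 fibroblast and meningeal markers, the sums were 59.5 to 88.9 and 71.3 to 121.2 CPM, with 8 of 10 higher. Astrocyte markers summed to 1074 to 1631 and 1297 to 2288 CPM, with 8 of 9 higher and Slc1a2 lower. Of the 8, Sox9 also changed with AP firing. Its log2 fold change was 2.13 after 2 h Bic, −1.32 in the LP passive effect and 0.07 in the LP total effect.

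Of the other lists, 5 of 9 oligodendrocyte lineage markers, 2 of 8 microglial and 1 of 9 endothelial markers were higher, against 19.9% of all genes. Endothelial sums were 5.25 to 8.31 CPM with TTX and 5.70 to 11.0 CPM with TTX/NMDA, Cldn5 and Tie1 being at 0 in many libraries. Neuronal markers summed to 8699 to 9686 CPM with TTX and to 7098 to 7767 CPM with TTX/NMDA. Of them 4 of 9 were lower and 0 higher, where 24.8% of all genes were lower. Those lower were Camk2a (log2 fold change −1.13), Slc17a7 (−0.83), Map2 (−0.59) and Syt1 (−0.24), while Rbfox3, Tubb3, Snap25, Gad1 and Gad2 were not called. The block fit called 5 neuronal markers lower and 2 higher, and 3 endothelial markers higher, where 33.8% of all genes were higher and 30.8% lower. CPM are shares of a library, so these sums depend on each other. In the SP 0 markers of the mural and the fibroblast and meningeal lists were called, with sums of 28.3 to 49.6 and 30.2 to 59.9 CPM for mural markers, while the block fit called 1 fibroblast and meningeal marker higher (6.16% of all genes). Without the block, the neuronal markers Map2, Slc17a7 and Camk2a and the astrocyte marker Slc1a2 were lower in the SP. Gad1, a neuronal marker, was higher, as were 1.71% of all genes. The part of these cells in the change of the chains was not tested.

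**Figure D4:**
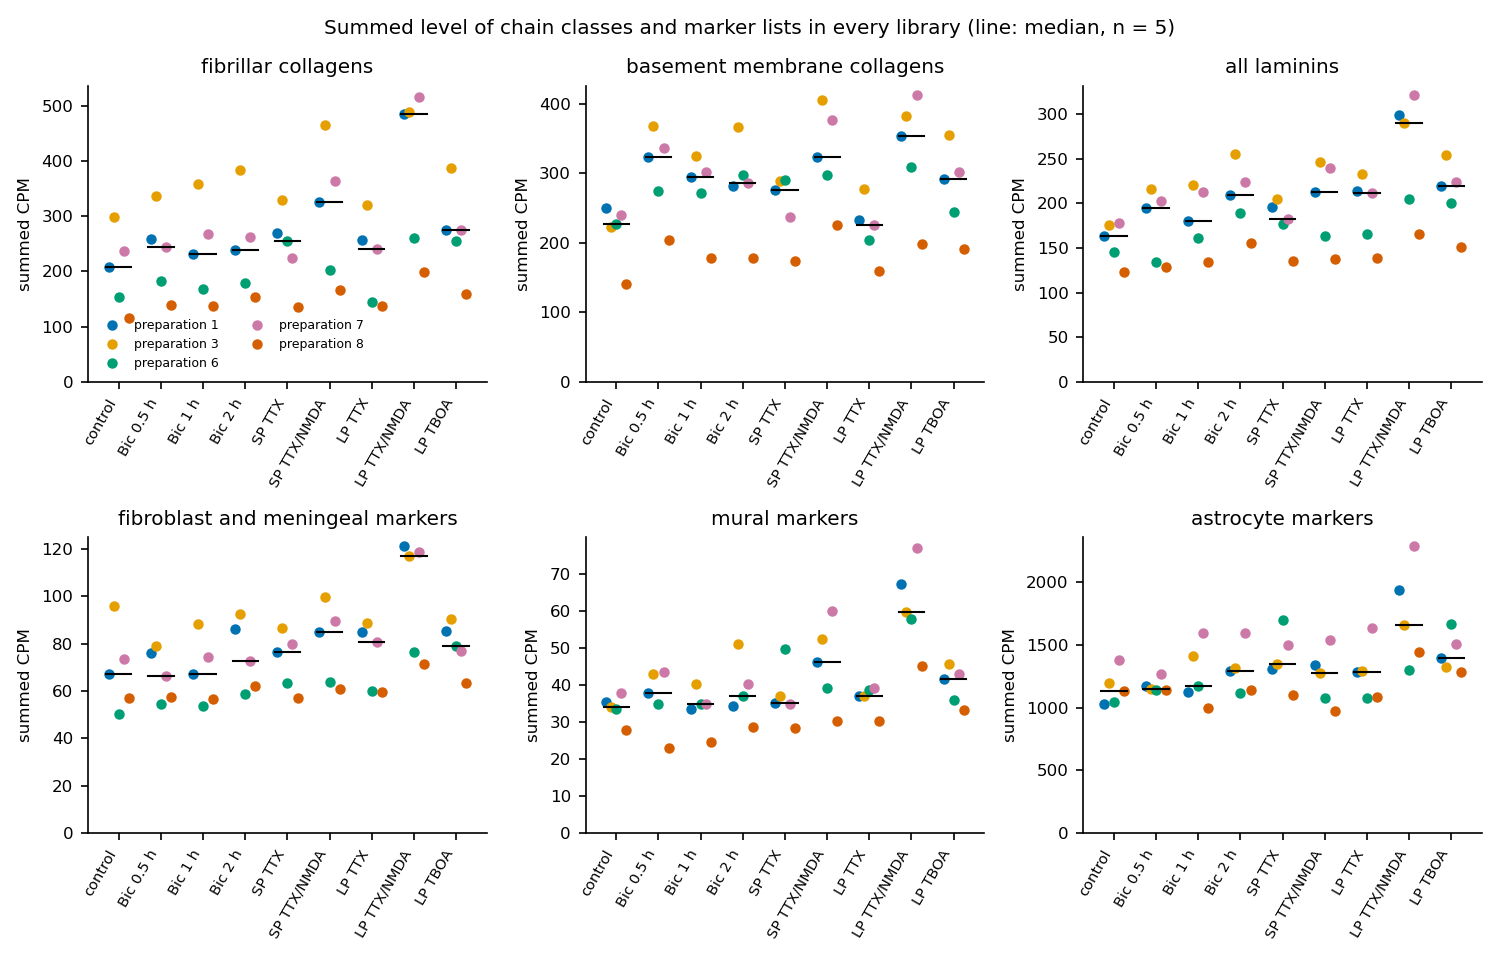
Summed level (CPM) of the fibrillar chains, the basement membrane collagens, all laminins and the fibroblast and meningeal, mural and astrocyte marker lists in each library, by condition, with a line at the median of the 5 preparations. The fibrillar chains reach 198.6 to 516.3 CPM with LP TTX/NMDA, where mural markers reach 44.96 to 77.02 CPM, above all 5 LP TTX libraries.

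Genes that process, partner or bind the chains were counted from lists of genes of known function. Of 30 genes of collagen biosynthesis (prolyl and lysyl hydroxylases, chaperones, procollagen proteinases and lysyl oxidases), 14 were higher and 3 lower in the LP active effect, where 19.9% of all genes were higher and 24.8% lower. The largest were the lysyl oxidase Loxl3 (0.88 ± 0.19, adjusted p = 0.00069) and the procollagen proteinase Adamts3 (−1.77 ± 0.10, adjusted p = 2.8e-14). Among 15 basement membrane partners 9 were higher and 3 lower, led by perlecan, Hspg2 (1.06 ± 0.20, adjusted p = 0.00014), and Smoc2 (−0.65 ± 0.17, adjusted p = 0.005). Among 17 receptors 11 were higher and 1 lower, led by the collagen-binding integrin Itga1 (1.00 ± 0.20, adjusted p = 0.00023) and by dystroglycan, Dag1 (−0.25 ± 0.07, adjusted p = 0.012).

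In the SP active effect 1 biosynthesis gene was lower (Adamts3, −0.94 ± 0.09, adjusted p = 2e-09) and 1 partner was lower (Smoc2, −0.48 ± 0.13, adjusted p = 0.022). None of the 3 lists had a gene called higher, where only 1.71% of all genes were. The block fit called 2 biosynthesis genes, 2 partners and 1 receptor higher, where 6.16% of all genes were. After 2 h Bic, Hspg2 (0.69 ± 0.18, adjusted p = 0.0079) and the syndecan Sdc1 (0.61 ± 0.16, adjusted p = 0.0083) were higher and no biosynthesis gene was called, where 7.82% of all genes were higher. With the preparation as a block 9 of 29 biosynthesis genes, 7 of 14 partners and 2 of 15 receptors were higher (14.6% of all genes). In the LP passive effect the prolyl hydroxylase P3h1 alone was called (0.50 ± 0.12, adjusted p = 0.011), while the block fit called 2 biosynthesis genes higher and 8 lower, 3 partners lower and 1 receptor lower, where 16.8% of all genes were lower. None of the lists had a called gene after 0.5 or 1 h Bic, in the SP passive effect or with glutamate spillover, except that 3 partners were higher after 1 h Bic in the block fit (2.97% of all genes). Without the block, 0.563% and 1.86% of all genes were higher after 0.5 and 1 h Bic. In either direction, 0.529% were called in the SP passive effect and 1.27% with spillover.

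Relative to uninterrupted firing, the LP total effect had 21 chains called higher and 1 lower, where 19.9% of genes were called higher and 23.2% lower. This comparison shares its TTX/NMDA libraries with the active effect and its 2 h Bic libraries with the passive effect, so it is given by its own values. The median was 0.34 over the chains and 0.02 over all genes. Filtering by filterByExpr left 13 higher (24.6% of genes) and DESeq2 called 11 (20.1% of genes). With the block 28 were higher and 3 lower (31% and 27.2% of genes), the lower ones being Col19a1, Col12a1 and Lamb3.

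The largest values in the total effect were those of Col4a6 (0.85 ± 0.20, adjusted p = 0.0014), Col6a6 (0.84 ± 0.31, adjusted p = 0.045), Col4a5 (0.84 ± 0.17, adjusted p = 0.00019), Col3a1 (0.83 ± 0.22, adjusted p = 0.005), Lama4 (0.83 ± 0.20, adjusted p = 0.0025), Col8a1 (0.81 ± 0.25, adjusted p = 0.014), Lamb2 (0.80 ± 0.15, adjusted p = 7.9e-05) and Col11a1 (0.76 ± 0.11, adjusted p = 2.9e-06). Of these, Col11a1 had groups that did not overlap, at 8.85, 12.3, 9.30, 11.5 and 8.87 CPM with 2 h Bic and 18.8, 19.8, 14.3, 19.9 and 14.01 CPM with TTX/NMDA. Col19a1 was lower (−0.38 ± 0.10, adjusted p = 0.0055). Col4a2 had −0.01 ± 0.13 and Col10a1 −0.33 ± 0.25 (adjusted p = 0.95 and 0.40).

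Glutamate spillover changed no chain past the test. With TBOA, 0 of the 50 chains were called in either direction by edgeR, where 1.27% of genes were. An unadjusted p under 0.05 was found for 4 chains, DESeq2 called 0, and the block fit called 1 higher (0.456% of genes). That chain was Col11a1, with 11.9, 15.1, 13.7, 13.6 and 10.8 CPM with TBOA, higher than with 2 h Bic in 5 of 5 preparations (0.36 ± 0.11, adjusted p = 0.15, and 0.013 in the block fit). Col10a1 had −0.48 ± 0.14 (adjusted p = 0.15). The median over the chains was 0.11, against 0.01 for all genes.

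**Figure D5:**
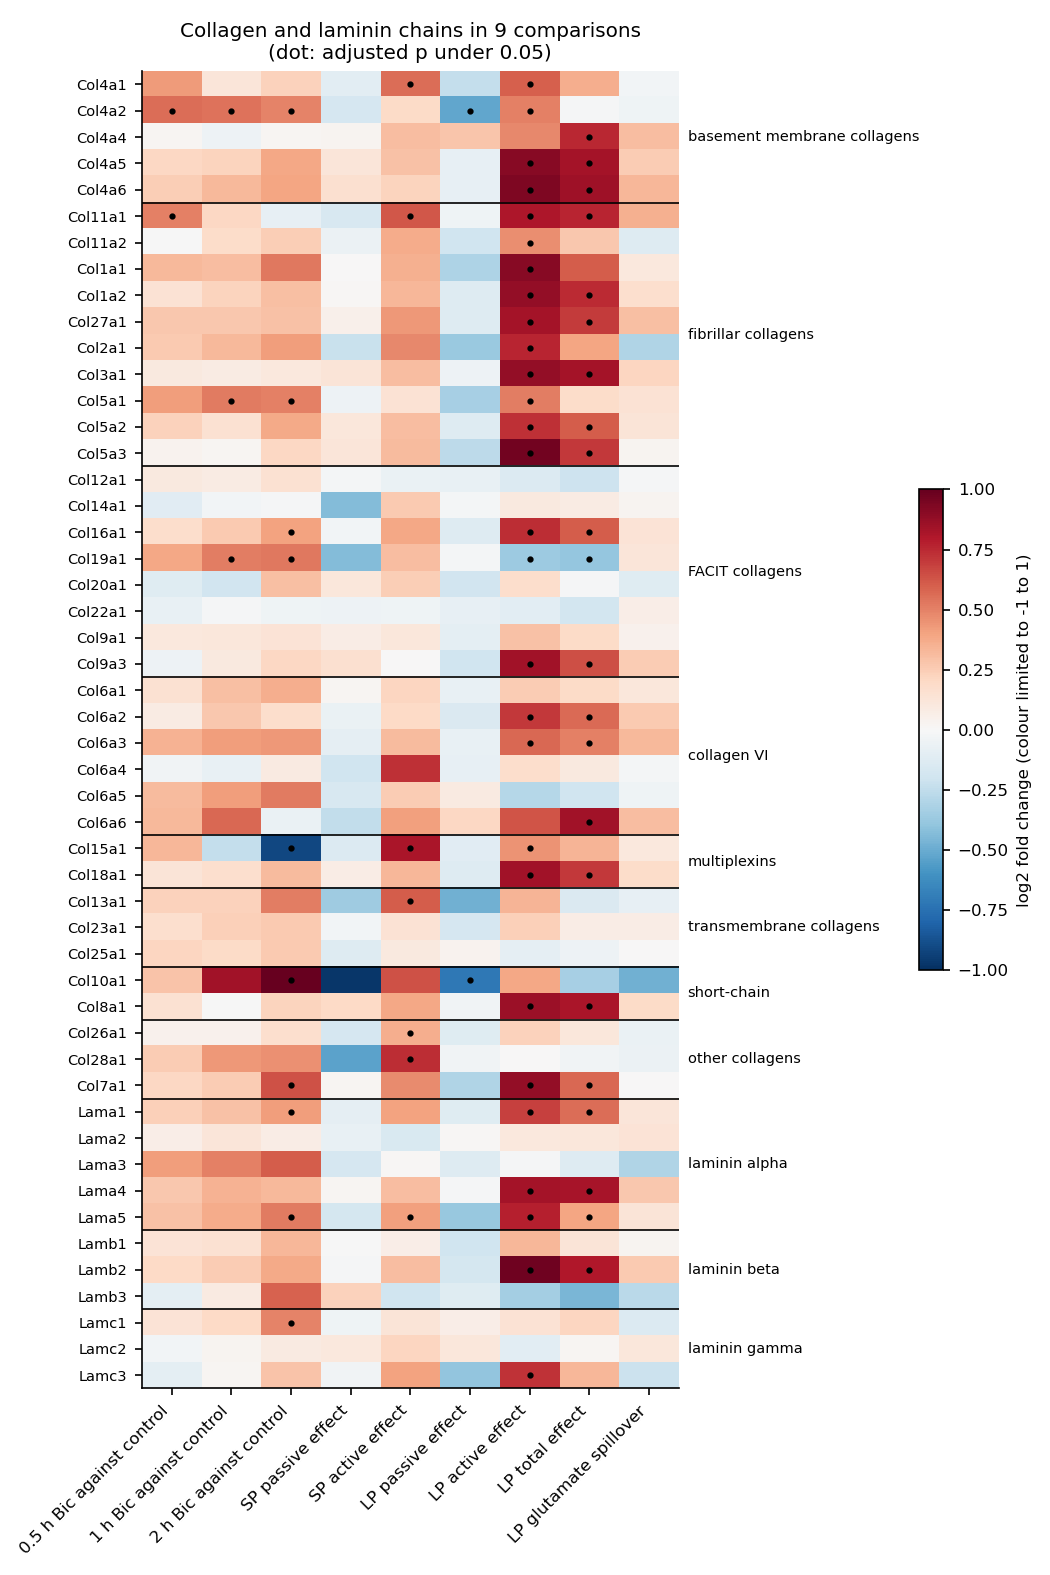
Log2 fold change of the 50 chains (rows, by class) in the 9 comparisons between conditions (columns), with colours limited to −1 to 1 and a dot where the adjusted p is under 0.05. Dots gather in the columns of the LP active (28) and LP total (22) effects, and the columns of the SP passive effect and of glutamate spillover hold none.

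Col4a3bp, the ceramide transfer gene that the symbol rule also takes, moved against most chains. It fell after 2 h Bic, from a mean of 72.6 to 56.5 CPM with no overlap (−0.37 ± 0.08, adjusted p = 0.00062), rose with TTX in the LP (0.29 ± 0.07, adjusted p = 0.0047) and fell with NMDA on top of TTX (−0.26 ± 0.08, adjusted p = 0.021). Between preparations its mean level differed 1.14 times.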

How the data were processed

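RNA was measured in 45 libraries of mouse hippocampal cultures, 5 culture preparations in each of 9 conditions, grouped by their labels. The authors made strand-specific libraries of poly-A RNA, aligned single-end reads to GRCm38 with STAR (version 2.5.4b; base calls by bcl2fastq 2.20.0.422) and counted them per gene of Ensembl release 94 with featureCounts (version 1.6.5), leaving out multi-mapping reads and reads shared by genes. The deposited values are these raw counts, not normalized, and sum to between 11316580 and 81129276 per library. Low depth widens the error of low chains such as Col10a1 in the controls.

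Symbols, exon lengths and positions came from GENCODE mouse release M21 for 54409 of 54532 rows, and upstream sequence from RefSeq. CPM use the TMM-scaled library totals, except for the minimum of 0.5 CPM, which used the totals as deposited. Each comparison was fitted to its own 10 libraries (20 for LP minus SP) with edgeR's quasi-likelihood test (4.0.16, limma 3.58.1, R 4.3.3) over genes with at least 1 read, with Benjamini-Hochberg adjustment over all of them. Alternatives were RLE size factors, filterByExpr, DESeq2 (1.42.0), the culture preparation as a block over genes that pass filterByExpr, each preparation left out, and no CPM minimum. The labels give the same culture preparation numbers in every condition. Libraries that share a number deviated together from their condition means (mean correlation 0.415 over 180 pairs, and 0.34 to 0.531 by comparison), so counts from the blocked fit, and its values for named chains whose call it changes, are given beside the results. The prior degrees of freedom were 20.36 to 44.88 in these fits and 5.494 to 6.97 with filterByExpr.

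Named with full statistics were up to 8 called chains in each direction per comparison with the largest changes, the 10 genes highest per length, and fixed basement membrane and fibrillar genes, with other chains named after their values were seen. The members, the lists of classes, partners, receptors and cell type markers, and the tests were chosen with earlier results of these data known. Fbln1 is in both the partner and the fibroblast list. On their own strand, Col20a1 shares 79 exonic bases with another gene, Col3a1 141 with Gm47302 and Col7a1 36 with Mir711, the last pair of partners being small RNA genes with 0 reads.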

Additional observations from a re-analysis of the deposited data

Results flagged for a closer look

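In 2 of 117 groups of 5 libraries examined for 13 of the genes shown, 1 library stood apart from the other 4, and chance would flag about 1 in 20. Both were preparation 8 for Col4a2: 100.9 CPM after 1 h Bic, where the next library had 156.3 CPM and the median was 160.5 CPM, and 89.97 CPM with LP TTX/NMDA, where the next had 150.5 CPM and the median was 152.6 CPM. Over all 51 genes, 25 of 459 groups held such a library.

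The response of Col19a1 to NMDA differed between the protocols by −0.66 ± 0.17 on the log2 scale (LP minus SP, edgeR's quasi-likelihood test on the interaction, adjusted p = 0.025). It was the only one of the 50 chains called in that test, and the call was lost without preparation 6.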

How the results depend on the processing

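No fold change of the 78 gene results reversed under any alternative. Their calls were lost in 22 cases with filterByExpr, in 22 with DESeq2, in 1 with RLE size factors, in 0 with the culture preparation as a block, and in 1 (without preparation 8) to 13 (without preparation 1) when a preparation was left out. RLE size factors and no CPM minimum kept all counts of called chains within 1.5 times, and the cause of the other changes was not tested.

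With filterByExpr, chains called higher numbered 0 after 0.5 h Bic, 0 after 1 h and 13 in the LP total effect, and 1 was lower in the LP passive effect. DESeq2 gave 1 higher after 0.5 h Bic, 11 higher in the LP total effect, and 2 higher and 2 lower for LP minus SP. In the paired analysis, with the replicate number as a block, 4, 6 and 28 chains were higher after 0.5, 1 and 2 h Bic, 14 in the SP active effect, 1 with glutamate spillover and 19 for LP minus SP. It gave 15 lower in the LP passive effect, 2 in the LP active effect, 3 in the LP total effect and 2 for LP minus SP, and it took no call from a named gene.

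Leaving out each preparation in turn gave 3 to 6 higher chains after 0.5 h Bic (4 without preparation 3, 6 without 6), 3 to 4 higher and 0 to 1 lower after 1 h (1 without 3), and 7 to 14 higher after 2 h (14 without 6). It gave 1 to 2 lower in the SP passive effect, 4 to 21 higher in the SP active effect, 2 to 3 lower in the LP passive effect, 24 to 32 higher and 1 to 2 lower in the LP active effect (2 without 8), and 16 to 27 higher and 1 to 2 lower in the LP total effect (2 without 8). With spillover it gave 0 to 2 higher (2 without 8) and 0 to 1 lower (1 without 7 or 8), and for LP minus SP 0 to 4 higher (1 without 3, 4 without 8) and 0 to 1 lower (0 without 6). The prior degrees of freedom were infinite without preparation 8 in the SP passive, SP active and spillover fits, and without 6, 7 or 8 after 0.5 h Bic, so these fits placed every gene on the variance trend. Groups of 4 or 5 and the spread between preparations limit what small changes can pass, and depth limits the chains near 0.5 CPM.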
